A study of Mus musculus with 70 samples.

Results

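The response of the Slc26a4 knockout lung to inhaled crystalline silica was measured 1 day after exposure ended, by RNA sequencing of a piece of lung from each mouse. The comparison took the libraries labelled homozygous knockout and 1 day, 6 from silica-exposed and 6 from air-exposed mice, which are 12 of the 70 libraries of the series. All mice were males of about 3 months at exposure, bred from 129S-Slc26a4tm1Erg/AjgJ heterozygotes. They spent 4 days, 6 hours a day, in a whole-body inhalation chamber with air or with Min-U-Sil5, a fine quartz dust, at 15 mg/m3. Both groups carry the same homozygous loss of Slc26a4 from birth in every tissue, so the contrast shows exposure and not genotype. Homozygous wildtype mice of the same breeding and exposure (6 air, 6 silica) shared the 1 day fit, and so its estimate of the spread. They also show where the knockout response differed. Knockout mice examined 3 months after exposure (6 air, 6 silica) and 9 months after it (6 air, 6 silica) were used only for that second purpose. The fit of 9 months also held wildtype mice of that time. Of 24420 genes in the count table, 12558 had enough counts in the 1 day libraries to be tested. P-values set an effect against the spread between mice, which in edgeR was estimated over all groups of a fit.

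Quartz particles that reach the air spaces are taken up by alveolar macrophages, and crystals that damage the phagosome set off cytokine release through receptors and NF-kappa-B, a transcription factor family held in the cytoplasm by inhibitory IkB proteins. Epithelial cells answer with CXC chemokines that draw neutrophils, with acute phase proteins, and with surfactant proteins that bind particles and microbes. Slc26a4 encodes pendrin, an exchanger of chloride for bicarbonate, iodide or thiocyanate at the surface of airway epithelium, known for its rise in inflamed airways. In bulk lung RNA, fewer cells of a type and less RNA per cell cannot be told apart, and this holds for every level given here.

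The 12 libraries held between 802478 and 3313686 counts, and no difference between the totals of the silica and air libraries was detected (exact permutation test, two-sided, p = 0.996). Markers of lung cells were present in all of them: the 5 alveolar type 2 markers summed to between 9042 and 11081 CPM (a gene's counts scaled to a fixed library size, with TMM scaling), the 5 alveolar type 1 markers to between 2632 and 3198, and the 3 club cell markers to between 9169 and 13630. The 3 liver markers (Alb, Apoa2 and Ttr) summed to between 1.44 and 305 CPM in air (median 19.8), highest in air replicate 4, and to between 1.40 and 45.9 in silica (median 3.53), and their part in the results was not tested. Silica replicate 3 stood apart from the other 5 silica libraries. Its counts differed from theirs by 13.1 to 15.0 chi-square units per degree of freedom, against 1.63 to 3.65 among the others, and its deviations from the group means followed the GC content of the genes (Spearman's rho -0.66 over 11868 genes, as a description across genes). Weaker trends with GC were present in other libraries, from -0.38 in air replicate 3 to 0.33 in silica replicate 2. Counts of Lars2 made up 1.74% of silica replicate 3 and 6.79% to 8.12% of the other silica libraries. Where a count or a call given here changed without it, the value without it follows. The libraries also split by the number in their titles. In air, pairs within the lower 3 or the higher 3 numbers differed by 1.72 to 2.56 units and pairs across by 3.48 to 5.22, with Lars2 at 4.28% to 5.27% of counts in the lower numbers and 8.05% to 9.04% in the higher. Each exposure has 3 libraries on each side of that split, which the labels do not explain. Alas2, a haem synthesis gene of red cell precursors, took a smaller share of the silica libraries, 0.0183% on average against 0.0445% (exact permutation test, two-sided, p = 0.00433), the haemoglobin genes being listed at 0 throughout. The part of this difference in the results was not tested.

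The targeted gene was read in every library. Slc26a4 (chr12:31519827-31559969, minus strand, mm10) ranged from 0.98 to 3.23 CPM with a median of 1.57 in knockout air, and from 5.99 to 20.4 with a median of 13.8 in knockout silica. The groups did not overlap. The log2 fold change was 2.88 (SE 0.45; edgeR quasi-likelihood test with Benjamini-Hochberg adjustment, adjusted p = 8.00e-05). Wildtype levels were higher in both exposures, with 4.21 to 12.5 CPM in air and 24.7 to 69.4 in silica, and the wildtype fold change was 2.62. The difference between the genotypes' log2 fold changes was 0.25 (SE 0.54, unadjusted p = 0.64 in the same fit). Counts over the whole gene can hold transcript of the targeted allele, so the low level is that of the gene's RNA and says nothing of protein.

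Silica raised far more genes than it lowered. Of the 12558 genes tested, 242 changed at an adjusted p under 0.05, which is 1.93% and is what "rose", "fell" or "called" means from here on. There were 214 increases (1.7%) and 28 decreases (0.223%), and 91 changes were at least 2-fold (0.725%). The raised genes were led by secreted defence proteins and chemokines, and included genes of cell division, NF-kappa-B feedback and complement. The largest called decrease was -1.06 log2 units (Cpne5), beside a largest increase of 5.88 (Saa3). The decreases in the lists were genes of fatty acid desaturation, fatty acid synthesis and oxidative lung enzymes. All 6 silica libraries lay above all 6 air libraries for 131 of the tested genes (1.04%) and below them for 29 (0.231%), whether called or not. Of the called genes, 117 of the 214 increases and 12 of the 28 decreases had groups that did not overlap. Averaged as the median of the raised genes over the air mean, the response of single silica mice was 1.05, 0.87 and 0.97 log2 units for the lower title numbers and 0.77, 0.72 and 0.56 for the higher, a description, since these genes were called on the same mice. Without silica replicate 3 the count became 280 (2.22%), with 234 increases (1.85%) and 46 decreases (0.364%), of which 205 were shared with the 242. Fitting only the 12 knockout libraries gave 122 calls, and 142 with a term for the title numbers. Without silica replicate 3 these counts became 169 and 198.

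**Figure D1:**
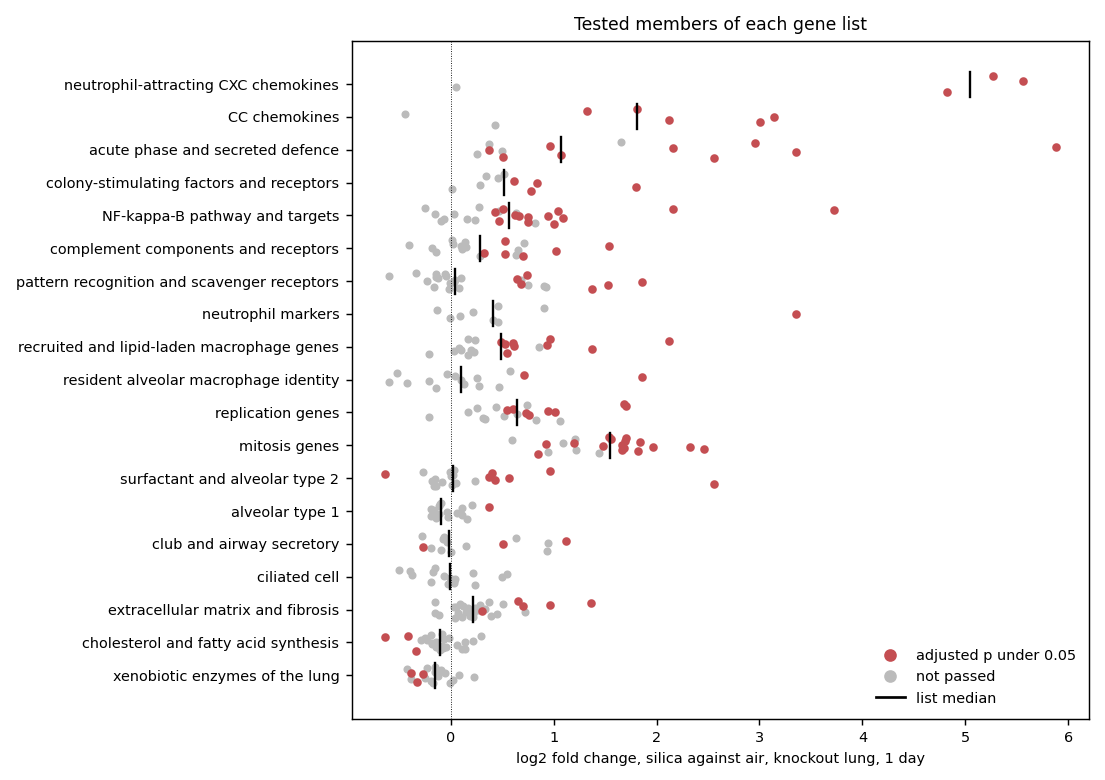
Log2 fold change (x axis, silica against air, knockout lung, 1 day) of every tested member of 19 gene lists (rows); red points passed an adjusted p under 0.05, grey points did not, and black bars are list medians. The CXC chemokine and mitosis lists have medians of 5.04 and 1.55, while the alveolar type 1 and ciliated lists centre near 0. Members near 0 in air could enter only through silica libraries.

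Chemokines and secreted defence proteins gave the largest changes. Of 4 tested neutrophil-attracting CXC chemokines 3 rose (median log2 fold change 5.04, against 0.00 over all genes tested). Of 13 tested acute phase and secreted defence genes 9 rose (median 1.08). The full lists hold 7 and 19 genes. The low-count filter used the exposure groups, and Cxcl1, Cxcl3 and Cxcl5 could pass it only through silica libraries. The share that rose and the median are therefore partly set by the filter, here and in other lists with members near 0 in air. Cxcl1, a ligand of the neutrophil receptor Cxcr2, ranged from 0.49 to 1.24 CPM in air (median 0.64) and from 12.4 to 29.9 in silica (median 24.4). The groups were far apart and did not overlap, with a log2 fold change of 4.82 (SE 0.34, edgeR adjusted p = 3.61e-12). Cxcl3, of the same family, was at 0 in 4 air libraries, with 2 counts over all 6, and had 124 counts in silica, where it ran from 6.22 to 20.4 CPM (median 8.84). The ratio of summed counts per library total was 61.8 (exact 95% interval 16.7 to 516, counting error only). Cxcl5 had 5 counts in air and 217 in silica, a ratio of 43.3 (exact 95% interval 18.3 to 135), and spread widely among silica mice, from 3.72 to 38.0 CPM. Cxcl15, the lung's constitutive CXC chemokine, did not pass: its range was 788 to 1112 CPM in air and 754 to 1202 in silica.

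Saa3, an acute phase apolipoprotein made by macrophages and epithelium, ranged from 0 to 1.90 CPM in air (median 0.79) and from 27.0 to 87.9 in silica (median 59.5), the largest log2 fold change of all called genes at 5.88 (SE 0.39, edgeR adjusted p = 7.29e-13). Lcn2, which starves bacteria of iron by binding their siderophores, went from a range of 30.6 to 62.1 CPM to one of 324 to 515. Its groups did not overlap, and it had the smallest p of all genes tested (log2 fold change 3.35, SE 0.15, edgeR adjusted p = 8.79e-18). Itih4, a hyaluronan-associated plasma protein, lay between 35.1 and 60.2 CPM in air and between 80.9 and 112 in silica (1.08 log2 units). Hp, which binds free haemoglobin, rose by 0.51 log2 units with overlapping groups. Lbp, which hands endotoxin to Cd14, did not pass (0.26, edgeR adjusted p = 0.33).

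The promoters of 4 of the most raised genes and of 2 inhibitors of NF-kappa-B signalling are shown because these genes rose together. Each line is the 250 bases before the RefSeq transcription start on the gene's strand (GRCm38.p6), in lower case, with matches to the kappa-B-type motif GGGNNNTTCC, searched on both strands, in capitals; where a match and its reverse complement overlap, the capitals join. The first 4 are Cxcl1 (chr5:90890995-90891244, plus strand), Cxcl3 (chr5:90785851-90786100, plus strand), Saa3 (chr7:46715677-46715926, minus strand) and Lcn2 (chr2:32387740-32387989, minus strand). The last 2 are the inhibitors, Nfkbia (chr12:55492648-55492897, minus strand) and Tnfaip3 (chr10:19015411-19015660, minus strand).
Cxcl1: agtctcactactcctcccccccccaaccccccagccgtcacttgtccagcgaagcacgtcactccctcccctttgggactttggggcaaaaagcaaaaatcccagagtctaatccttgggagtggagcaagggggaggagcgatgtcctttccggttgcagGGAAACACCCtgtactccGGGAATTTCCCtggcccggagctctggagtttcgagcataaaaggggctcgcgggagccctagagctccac
Cxcl3: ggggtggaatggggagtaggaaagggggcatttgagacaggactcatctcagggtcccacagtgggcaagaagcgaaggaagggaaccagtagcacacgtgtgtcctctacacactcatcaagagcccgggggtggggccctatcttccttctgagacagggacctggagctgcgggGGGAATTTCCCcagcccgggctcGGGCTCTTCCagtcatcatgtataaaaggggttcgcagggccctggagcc
Saa3: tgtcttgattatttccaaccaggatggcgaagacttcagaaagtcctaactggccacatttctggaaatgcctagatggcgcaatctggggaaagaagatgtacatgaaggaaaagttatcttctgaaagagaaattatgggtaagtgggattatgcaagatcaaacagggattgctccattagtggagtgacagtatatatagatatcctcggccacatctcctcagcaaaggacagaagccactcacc
Lcn2: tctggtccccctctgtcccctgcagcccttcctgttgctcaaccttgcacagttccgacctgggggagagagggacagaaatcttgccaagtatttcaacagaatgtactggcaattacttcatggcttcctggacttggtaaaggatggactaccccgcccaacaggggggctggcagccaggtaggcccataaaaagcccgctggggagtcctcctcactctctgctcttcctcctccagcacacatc
Nfkbia: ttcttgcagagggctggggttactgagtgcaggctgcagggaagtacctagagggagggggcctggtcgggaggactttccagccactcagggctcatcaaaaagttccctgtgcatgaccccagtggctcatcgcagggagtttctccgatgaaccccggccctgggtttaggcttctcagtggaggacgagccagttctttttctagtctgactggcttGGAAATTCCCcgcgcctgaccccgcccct
Tnfaip3: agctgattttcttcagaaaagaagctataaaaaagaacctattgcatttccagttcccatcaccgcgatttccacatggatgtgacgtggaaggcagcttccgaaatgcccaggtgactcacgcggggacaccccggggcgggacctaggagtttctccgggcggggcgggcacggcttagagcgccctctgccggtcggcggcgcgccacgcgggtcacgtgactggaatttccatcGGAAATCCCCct
Cxcl1 held 3 matches, beginning 89, 71 and 70 bases before the start, the last 2 overlapping on opposite strands. Cxcl3 held 3, at 73, 72 and 50 bases, the pair at 73 and 72 overlapping likewise. Nfkbia held 1 at 29 bases and Tnfaip3 1 at 12 bases in the window shown, while these letters are not in the windows of Saa3 and Lcn2. In all, 17 raised genes were searched by name, a choice made with their values known, of which 15 had a window and 6 held the motif. Nfkb2 and Nfkbie were the others that held it, and the windows of Csf2, Sod2, Birc3, Tnip3, Icam1, Ccl3 and C3 did not. Among tested genes with a window, 19 of the 169 raised ones (11.2%) held the motif in their first listed window, beside 476 of 9518 over all tested genes (5%) and 4.65% of all 32817 windows. A match is a description of the sequence and not evidence of binding.

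CC chemokines, which draw monocytes, dendritic cells and lymphocytes, rose in 5 of 7 tested members (median 1.81). Ccl6 and Ccl9, made by macrophages and neutrophils, went from 79.3 to 100 CPM in air to 167 to 261 in silica, and from 3.71 to 16.5 to 21.0 to 61.2. Neither overlapped, at 1.32 (SE 0.10) and 1.81 (SE 0.21) log2 units. Ccl3, a ligand of Ccr1, had 8 counts over the air libraries and 75 over the silica libraries, a ratio of 9.34 (exact 95% interval 4.51 to 22.4), and Ccl17, a ligand of Ccr4, had 8 and 69, a ratio of 8.60 (4.13 to 20.7). Ccl5, made mainly by T and natural killer cells, did not pass (-0.45, edgeR adjusted p = 0.65), and 0 of 15 T and natural killer cell genes were called.

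Neutrophil genes, unlike the chemokines that attract neutrophils, did not pass with a single exception. Of 9 tested neutrophil genes only Lcn2, which epithelium also makes, was called (list median 0.41). The 4 neutrophil markers in the table summed to 65.5 to 101 CPM in air (median 81.9) and to 64.1 to 161 in silica (median 127). The ranges overlapped, and 0 of the 4 passed. S100a9, a subunit of calprotectin, ranged from 16.1 to 30.3 CPM in air and from 14.4 to 44.9 in silica (0.46 log2 units, edgeR adjusted p = 0.46). Csf3r, the receptor for granulocyte colony-stimulating factor, gave 0.46 (edgeR adjusted p = 0.21).

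**Figure D2:**
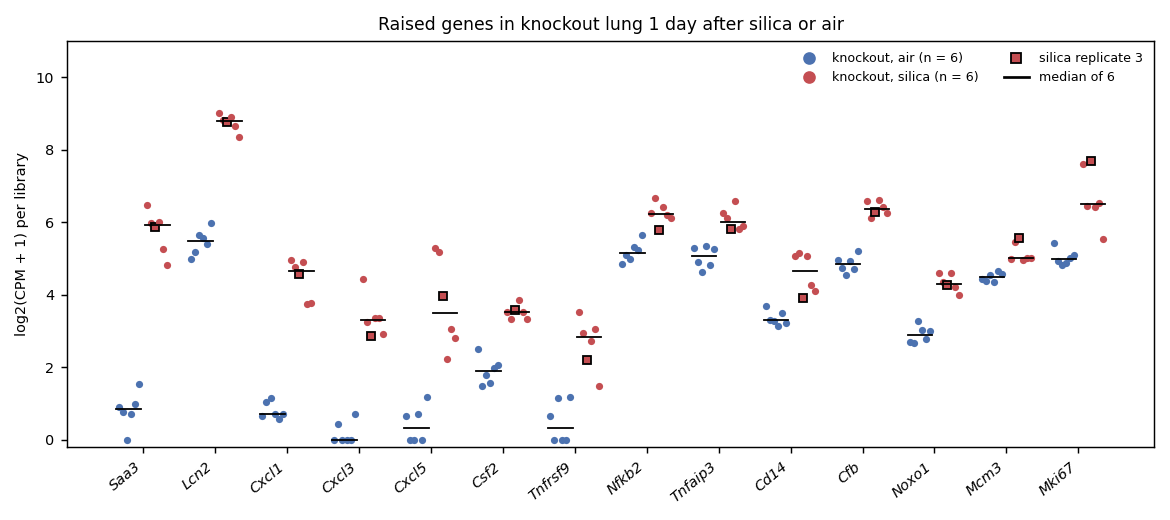
Level of 14 raised genes in each knockout library at 1 day, as log2(CPM + 1) on the y axis; blue points are 6 air mice, red points 6 silica mice, the outlined square silica replicate 3, and black bars medians. The 6 silica libraries lie above the 6 air libraries for each gene shown, and Cxcl5 and Mki67 spread widely among silica mice.

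Growth factors of the macrophage lineage rose with part of their receptors. Csf2, the growth factor alveolar macrophages need, ranged from 1.79 to 4.61 CPM in air (median 2.70) and from 8.98 to 13.5 in silica (median 10.5). The groups were separate (log2 fold change 1.80, SE 0.27, edgeR adjusted p = 3.24e-05). Csf1, the ligand of Csf1r, rose from 44.7 to 65.9 CPM to 74.3 to 130, at 0.78 log2 units. The common beta chain of the Csf2 receptor, Csf2rb, rose by 0.84 (SE 0.11). Its near-identical neighbour Csf2rb2 rose by 0.62, is uncertain because reads can be shared between the pair, and was not called without silica replicate 3 (edgeR adjusted p = 0.059). Csf1r itself, a marker of the whole lineage, gave 0.02 (edgeR adjusted p = 0.98).

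Inhibitors and targets of NF-kappa-B rose together with the subunit gene Nfkb2, while the other subunit genes (Nfkb1, Rel, Rela and Relb) did not pass with all libraries. Of 24 tested members 13 rose, 0 fell and 11 did not pass (median 0.56), and without silica replicate 3 14 rose. Relb, the partner of the Nfkb2 product, gave 0.64 (edgeR adjusted p = 0.13) and was called without that library (0.74, edgeR adjusted p = 0.035). Nfkb2, the subunit precursor of the non-canonical pathway, ranged from 28.0 to 49.4 CPM in air (median 34.6) and from 54.5 to 101 in silica (median 73.3). No silica mouse fell within the air range (log2 fold change 1.09, SE 0.13, edgeR adjusted p = 5.02e-07). Tnfaip3, the ubiquitin-editing inhibitor A20, went from 23.5 to 39.4 CPM to 55.0 to 94.0 (1.04, SE 0.14, edgeR adjusted p = 4.13e-06). The IkB genes Nfkbia, Nfkbie and Nfkbiz rose by 0.75, 0.95 and 0.62 log2 units. Nfkbia overlapped between groups, with the highest air mouse at 144 CPM and the lowest silica mouse at 133. Birc3, an inhibitor of apoptosis and ubiquitin ligase of the pathway, rose by 0.76, and Tnip3, a partner of A20, by 2.16. Tnfrsf9, the costimulatory receptor 4-1BB, had 5 counts in air and 74 in silica, a ratio of 14.7 (exact 95% interval 6.04 to 46.8). Icam1, the endothelial ligand of neutrophil integrins, rose by 0.47, and Sod2, the mitochondrial superoxide dismutase, by 0.43. The subunit genes Nfkb1 and Rela ranged over 123 to 148 and 61.6 to 95.0 CPM in air and over 129 to 158 and 66.4 to 88.4 in silica (0.15 and 0.04, edgeR adjusted p = 0.40 and 0.96).

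Among cytokine and sensing genes, Tnf rose from 1.79 to 4.41 CPM to 6.22 to 10.5 (log2 fold change 1.33, SE 0.27, edgeR adjusted p = 0.00318). It was the only called gene of 13 in the list of interleukin 6 family and other cytokines. Il1rn, the interleukin 1 receptor antagonist, rose by 1.55 and Nlrp3, the crystal-sensing inflammasome receptor, by 0.93, the 2 calls among 18 interleukin 1 and inflammasome genes. Of 25 receptors for particles and microbes 6 rose (median 0.04), and 5 without silica replicate 3. Marco, a scavenger receptor of alveolar macrophages that binds silica, went from 12.4 to 29.7 CPM in air to 49.2 to 70.8 in silica. Its groups did not overlap (1.86, SE 0.16, edgeR adjusted p = 8.32e-10). Cd14, the endotoxin co-receptor, rose by 1.37, Tlr2 by 0.74, the C-type lectin Clec5a by 1.52 and the glucan receptor Clec7a by 0.69. Clec7a was highest in silica replicate 3, which stood at 177 CPM beside 66.5 to 123 in the other silica mice, and its log2 fold change without that library was 0.50 (edgeR adjusted p = 0.0154).

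In the complement list the largest increases were in Cfb and C3. Cfb, the protease of the alternative pathway, ranged from 22.2 to 36.1 CPM in air (median 27.7) and from 67.6 to 97.3 in silica (median 80.6). C3, the protein it helps to cleave, ranged from 747 to 896 CPM in air and from 1289 to 2136 in silica. Both genes had separate groups, with log2 fold changes of 1.54 (SE 0.14, edgeR adjusted p = 3.20e-09) and 1.02 (SE 0.10, edgeR adjusted p = 8.85e-09). Among genes of the C1 complex, C1ra, C1qb and C1s1 rose by 0.53, 0.70 and 0.32, with overlapping groups, while C1qa and C1qc gave 0.28 and 0.63 and did not pass (edgeR adjusted p = 0.68 and 0.13). Without silica replicate 3 C1qc was called (0.73, edgeR adjusted p = 0.041) and C1s1 was not (edgeR adjusted p = 0.055). The regulator Serping1, which blocks C1, gave 0.01 (edgeR adjusted p = 0.99). In all, 6 of 19 tested complement genes rose and 0 fell (median 0.28).

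Some raised genes lay beside each other on the chromosome. Of 213 raised genes with a position, 27 (12.7%) had a raised gene as the next tested neighbour, beside 3.16% of the 12294 other tested genes. The runs included Cxcl5 and Cxcl3 (chr5:90759360-90789600), Ccl9, Ccl6, Ccl3 and Wfdc17 (chr11:83572919-83706268), the surfactant genes Sftpa1 and Sftpd (chr14:41131782-41185149), Csf2rb2 and Csf2rb (chr15:78282507-78353847), C1ra and C1s1 (chr6:124512405-124542359), Vnn3 and Vnn1 (chr10:23851462-23905343) and F7, F10 and Proz (chr8:13026034-13076026), all in mm10. Members of the vanin and coagulation runs are named for their position, a choice made after their values were seen. F7, F10 and Proz encode coagulation factor VII, factor X and protein Z, vitamin K-dependent plasma proteins. F10 ranged from 16.1 to 24.5 CPM in air and from 32.6 to 36.8 in silica, with no overlap (0.78, SE 0.14, edgeR adjusted p = 6.22e-04). F7 rose by 1.15 (edgeR adjusted p = 0.0152) with overlapping groups, and Proz went from 0 to 3.23 CPM to 3.60 to 7.60 (2.13, edgeR adjusted p = 0.00105). Vnn1 and Vnn3, pantetheinases that release cysteamine, had separate groups, Vnn1 at 9.23 to 13.6 CPM in air and 24.0 to 67.0 in silica (2.09, SE 0.18) and Vnn3 at 2.47 to 6.34 and 14.2 to 25.6 (1.96, SE 0.21). The counting's strand setting is not given in the sources used here, so reads of overlapping neighbours cannot be told apart.

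Genes of DNA replication and mitosis rose in the knockout lung 1 day after exposure. Of 22 tested mitosis genes 16 rose (median 1.55) and of 19 replication genes 8 rose (median 0.65), with 0 falling in either list. The full lists hold 32 and 24 genes. Members near the floor in air, such as Cdk1 (0 to 2.02 CPM in air, 3.67 to 8.51 in silica), can enter the test through the silica libraries. The shares that rose and the medians can therefore be raised by the low-count filter. Mki67, the proliferation antigen, ranged from 27.2 to 42.1 CPM in air (median 30.5) and from 45.0 to 206 in silica (median 89.1). The lowest silica mouse was just above the highest air mouse, and the log2 fold change was 1.84 (SE 0.26, edgeR adjusted p = 1.38e-05). Top2a, which untangles replicated DNA, went from 7.10 to 15.9 CPM to 18.6 to 57.5 (1.70, SE 0.27). Cdk1, the kinase that starts mitosis, rose by 2.46, the kinetochore gene Cenpf by 2.33 and the spindle gene Prc1 by 1.56. Outside the list, Cdca2 and Iqgap3, also known from dividing cells, were among the largest increases at 2.45 and 2.20. Silica replicate 3 was the highest of the 6 silica mice for Mki67 and Cenpf, and without it the mitosis list had 13 called members (median 1.37) and Cenpf a log2 fold change of 1.94.

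The replication list had a smaller median than the mitosis list, a contrast that the low-count filter can affect. All silica libraries lay above all air libraries for 6 of 19 replication genes, 8 of 22 mitosis genes and 1.04% of all genes tested. Mcm3, a subunit of the replicative helicase, lay between 19.4 and 24.0 CPM in air and between 30.3 and 46.2 in silica, with no overlap (0.73, SE 0.13, edgeR adjusted p = 6.27e-04). Mcm5 and Mcm6, of the same helicase, rose by 1.01 and 0.94. Pcna, the polymerase clamp, rose by 0.61, with replicate 3 at 67.9 CPM beside 37.2 to 48.4 in the other silica mice, and by 0.48 without it. Lig1, which joins Okazaki fragments, went from 6.46 to 11.2 CPM to 14.9 to 20.7 (0.76). Uhrf1, which maintains DNA methylation at forks, rose by 1.68 and Rrm2, the ribonucleotide reductase subunit of dividing cells, by 1.70. Without replicate 3, 8 replication genes were called. Bulk RNA does not show which cells divided.

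More genes rose in the list of recruited and lipid-laden macrophages than in that of resident ones, a difference that was not tested. The list names do not tell which macrophages made the RNA. Of 18 monocyte and interstitial macrophage genes 4 rose (median 0.03; 3 without silica replicate 3). Of 19 genes of recruited and lipid-laden macrophages 9 rose (median 0.49; 8 without silica replicate 3), while of 15 identity genes of resident alveolar macrophages 2 rose, Marco among them (median 0.10). Ctsk, a collagen-degrading cathepsin, ranged from 7.10 to 15.6 CPM in air and from 27.5 to 43.3 in silica, without overlap (1.37, SE 0.19, edgeR adjusted p = 9.27e-06). Mmp12, the macrophage elastase, rose by 2.12, and by 1.91 without replicate 3, which was its highest silica mouse at 28.0 CPM. Itgax, the integrin CD11c, rose by 0.53. Chil3, the abundant chitinase-like protein of resident cells, and Apoe gave 0.13 and -0.22 (edgeR adjusted p = 0.61 and 0.46). The resident macrophage markers summed to 629 to 771 CPM in air and 666 to 813 in silica, the monocyte markers to 82.7 to 134 and 76.7 to 151, with 0 called in either set.

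Among alveolar type 2 genes the collectins rose, and the hydrophobic surfactant proteins did not pass. Of 21 tested type 2 genes 6 rose and 1 fell (median 0.02). Sftpd, the collectin that binds particles and microbes, ranged from 389 to 485 CPM in air (median 408) and from 657 to 935 in silica (median 835), with no overlap (0.96, SE 0.08, edgeR adjusted p = 8.16e-10). Sftpa1, its neighbour and fellow collectin, went from 1910 to 2330 CPM to 2433 to 2968 (0.40, SE 0.06). Sftpc, the hydrophobic surfactant protein that marks these cells, ranged over 4266 to 5033 CPM in air and 4126 to 5109 in silica and gave -0.01 (SE 0.06, edgeR adjusted p = 0.99). Sftpb gave -0.27 (edgeR adjusted p = 0.42), with replicate 3 at 909 CPM beside 1592 to 1779 in the other silica mice. Chil1, a chitinase-like lectin, rose from 55.6 to 83.0 CPM to 281 to 505 (2.56, SE 0.15, edgeR adjusted p = 1.35e-14). Lamp3, of lamellar bodies, rose by 0.43, with replicate 3 at 1236 CPM beside 725 to 796, and by 0.29 without it. Outside the list, Ly6i, a Ly6 family gene whose reads can be shared with near-identical relatives, rose by 3.89.

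A few oxidase and metal-handling genes rose. Of 9 oxidase and peroxidase genes 2 rose, Noxo1 and Cybb (median 0.25), and 1 without silica replicate 3. Of 17 iron, zinc and metallothionein genes 3 rose, Lcn2, Steap4 and Cp (median 0.22), and 4 without that library. Noxo1, the organiser of the epithelial NADPH oxidase Nox1, ranged from 5.37 to 8.65 CPM in air (median 6.42) and from 15.0 to 23.3 in silica (median 18.8). Its groups were separate (1.65, SE 0.20, edgeR adjusted p = 1.02e-06). Noxa1, the activator of the same enzyme and not in the list of 9 oxidase genes, went from 0 to 3.71 CPM to 5.19 to 8.39 (2.33, SE 0.35, edgeR adjusted p = 3.36e-05). Nox1 itself had too few counts to test. The phagocyte oxidase subunit Cybb rose by 0.47 and was not called without replicate 3 (edgeR adjusted p = 0.067), and Nox4 gave -0.06 (edgeR adjusted p = 0.88). Steap4, a metalloreductase, rose from 10.4 to 16.7 CPM to 38.4 to 82.2 (2.25), and Cp, the copper ferroxidase ceruloplasmin, from 228 to 314 to 358 to 607 (0.75). Of 14 airway secretory genes 2 rose and 1 fell, of 17 type 1 genes 1 rose, and of 17 ciliated genes 0 were called. Without replicate 3, 3 airway secretory genes rose and 0 fell, 1 type 1 gene rose and 1 fell (Akap5, -0.28), and 1 ciliated gene rose (Foxj1, the master factor of motile cilia, 0.64). Scgb1a1, the main club cell product, gave -0.07 (edgeR adjusted p = 0.83) and Ager, a type 1 marker, 0.16 (edgeR adjusted p = 0.46).

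Matrix and protease genes changed in a few members. Of 31 matrix and fibrosis genes 5 rose (median 0.22; 4 without silica replicate 3), and of 18 proteases and inhibitors 5 rose (median 0.28). Serpina3n, a secreted inhibitor of leukocyte proteases, ranged from 117 to 166 CPM in air and from 181 to 307 in silica (0.71 log2 units). Mmp19 rose by 0.69, Fn1, fibronectin, by 0.31, and Timp1 by 1.36, the last not called without replicate 3 (edgeR adjusted p = 0.061). Col3a1, a fibrillar collagen, ranged from 251 to 486 CPM in air and from 279 to 751 in silica and did not pass (0.39, edgeR adjusted p = 0.38).

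Other called genes had known regulatory roles. Myc and Egr2, transcription factors of the early growth response, rose by 0.97 and 1.12, and Bhlhe40, a clock-linked repressor, by 0.67, each with overlapping groups. Ptgs2, the inducible prostaglandin synthase, rose by 0.83, and Rgs16, a brake on G protein signalling, by 2.24. Of 21 interferon-stimulated genes 3 rose (median 0.33; 2 without silica replicate 3), with Ifit1 at 10.0 to 15.5 CPM in air and 17.7 to 45.1 in silica (1.22) and Ifit3 rising by 0.58.

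Among the lists, decreases were in lipid synthesis and in oxidative lung enzymes. Of 25 cholesterol and fatty acid synthesis genes 3 fell and 0 rose (median -0.10). Scd2, a fatty acid desaturase of lung, ranged from 792 to 989 CPM in air (median 949) and from 623 to 780 in silica (median 696), with no overlap (-0.42, SE 0.06, edgeR adjusted p = 4.22e-05). Scd1, its relative in type 2 cells and fat, ranged from 2272 to 3675 CPM in air and from 1488 to 2505 in silica (-0.63, SE 0.14, edgeR adjusted p = 0.00535). The groups of Scd1 overlapped, and so did those of Acaca, which makes malonyl-CoA for chain growth (-0.33, edgeR adjusted p = 0.0168). Fasn and Acly, also abundant members, gave -0.18 and -0.10 (edgeR adjusted p = 0.42 and 0.57). Of 19 xenobiotic enzymes 3 fell and 0 rose (median -0.15; 2 fell without silica replicate 3): Cyp4b1 (-0.39) and Aox3 (-0.33), both with separate groups, and Cyp2f2 of club cells (-0.27), with overlap. Replicate 3 was the lowest silica mouse for Cyp4b1, at 281 CPM beside 396 to 525, and Cyp2f2 was not called without it (edgeR adjusted p = 0.069).

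**Figure D3:**
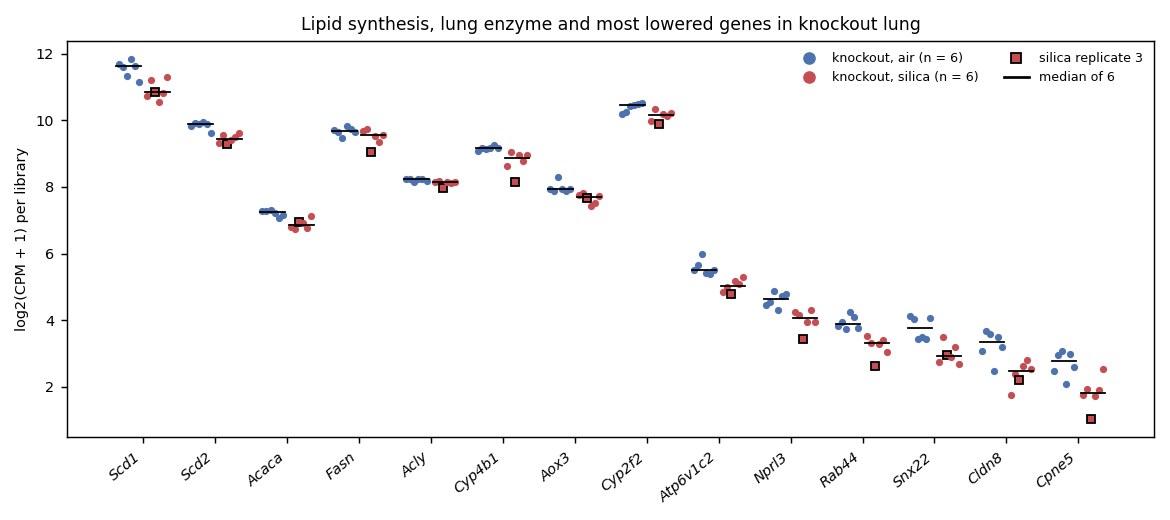
Level of 14 genes in each knockout library at 1 day, as log2(CPM + 1) on the y axis; points, the outlined square of silica replicate 3 and median bars are as in the plot of raised genes. Fasn and Acly did not pass the test; the other 12 fell, and Scd2 ranged from 792 to 989 CPM in air and from 623 to 780 in silica.

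The largest called decrease was that of Cpne5. Cpne5, a calcium-dependent membrane-binding protein, ranged from 3.23 to 7.41 CPM in air and from 1.04 to 4.80 in silica (-1.06, edgeR adjusted p = 0.0472). Cldn8, a tight junction protein of ion-transporting epithelium, went from 4.52 to 11.8 CPM to 2.38 to 5.96 (-1.02, edgeR adjusted p = 0.0174). Both pairs of groups overlapped, whereas those of Ercc8, a protein of transcription-coupled DNA repair, did not, at 7.75 to 12.5 and 3.80 to 5.99 CPM (-0.95, SE 0.20, edgeR adjusted p = 0.00341). Rab44 (12.4 to 18.1 and 5.19 to 10.5 CPM, -0.78) and the proton pump subunit gene Atp6v1c2 (40.7 to 63.0 and 26.4 to 38.4 CPM, -0.54) were separate too. Snx22 fell by 0.90 on the log2 scale, 2210011C24Rik by 0.88, Nprl3, of the amino acid-sensing GATOR1 complex, by 0.58 and the microRNA gene Mir682 by 0.57. Counts over Mir682 can come from any transcript across its hairpin and do not measure the mature microRNA. Of these 10 largest decreases, which include Scd1, Cpne5, 2210011C24Rik, Rab44, Nprl3 and Mir682 were not called without replicate 3 (edgeR adjusted p = 0.104, 0.051, 0.052, 0.108 and 0.107).

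Wildtype mice gave a response of the same direction in most genes. Of the 242 genes called in the knockout, 238 had the same sign in wildtype, and 156 (64.5%) were called in both, which is 52.3% of the 298 wildtype calls (2.37% of genes tested, with 245 increases, or 1.95%, and 53 decreases, or 0.422%). No gene's difference between the genotypes' silica effects passed an adjusted p under 0.05 in edgeR (0 of 12558, 0%), with 716 at an unadjusted p under 0.05 (5.7%), and DESeq2 also gave 0, with 616. Nfkb2 rose by 1.09 in the knockout and 0.61 in wildtype (difference 0.48, SE 0.18, unadjusted p = 0.0097), and Marco by 1.86 and 1.13 (difference 0.73, SE 0.23, unadjusted p = 0.0028). Of 22 mitosis genes 16 were called in the knockout and 18 in wildtype (medians 1.55 and 1.38). For their difference, 0 of 22 had an unadjusted p under 0.05. Replication genes were called 8 times in the knockout and 3 times in wildtype of 19, and 3 of 19 had an unadjusted p under 0.05 for the difference, among them Lig1 at 0.76 and 0.13 (unadjusted p = 0.0062). Clec4e, a receptor for mycobacterial glycolipid and dead cells singled out after its values were seen, ran the other way, at 0.90 in the knockout and 2.51 in wildtype (difference -1.61, SE 0.41, unadjusted p = 4.6e-04). None of these differences held after adjustment.

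**Figure D4:**
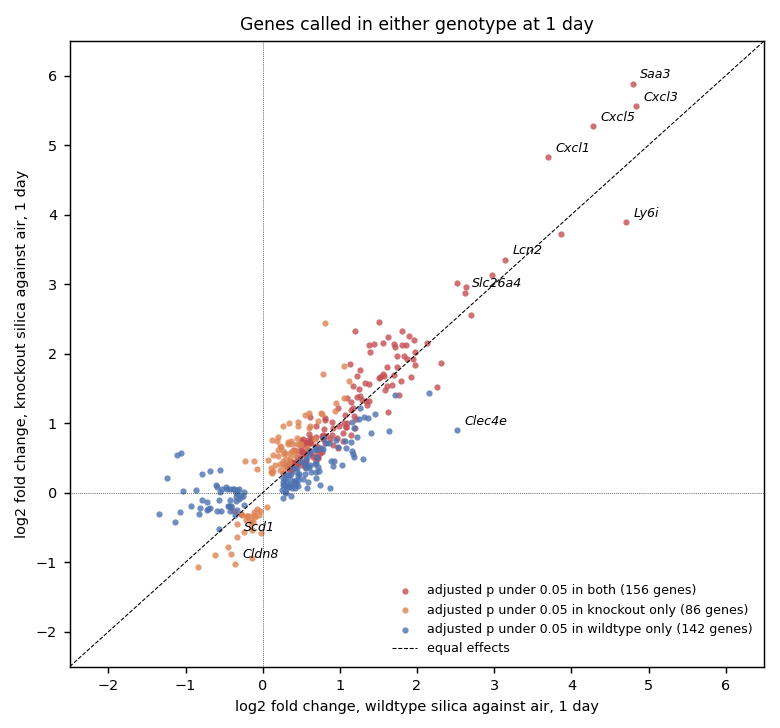
Log2 fold change of silica against air at 1 day in knockout (y axis) and wildtype lung (x axis) for genes called in either; red, called in both (156), orange, knockout only (86), blue, wildtype only (142), dashed line, equal effects. The labelled gene Clec4e is at 0.90 in knockout and 2.51 in wildtype, and 0 genes passed the test of the difference.

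The 5 genes with the smallest p for the genotype difference were Tcf7l1, Hspb7, Ak1, Cox6a2 and Pla2g1b, all at an adjusted p of 0.396. Each had a positive log2 fold change in the knockout that did not pass (0.27, 0.54, 0.33, 0.57 and 0.72) and a negative one in wildtype (-0.78, -1.11, -0.55, -1.06 and -0.68). Tcf7l1, a repressor of Wnt target genes, had medians of 18.1 CPM in knockout air and 20.9 in knockout silica, with overlapping groups, and its difference of 1.05 (SE 0.22) reached an adjusted p of 0.031 in edgeR without silica replicate 3, its lowest silica mouse. Hspb7 and Cox6a2 are muscle genes, and 17 tested heart muscle genes of the pulmonary vein had 0 calls in the knockout (median -0.09) and 3 decreases in wildtype (median -0.70). The 4 heart muscle markers summed to 362 to 581 CPM in knockout air, 281 to 656 in knockout silica, 301 to 760 in wildtype air and 216 to 509 in wildtype silica. The part of this tissue in the difference was not tested. Without replicate 3 in the shared fit, wildtype calls went from 298 to 525 (4.16%), with 351 increases (2.78%) and 174 decreases (1.38%).

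The 1 day response overlapped with that of knockout lungs 3 months after exposure, in other mice. Of 239 called genes also tested there, 225 had the same sign and 116 were called at both times (48.5% of the 239, and 38.3% of 303 called at 3 months and tested at 1 day). At 3 months 307 genes were called (2.44%). Only Bcan passed a test of the difference between the 2 effects (0.00795% of 12576 genes, with 654, or 5.2%, at an unadjusted p under 0.05). Bcan, a proteoglycan known from brain matrix, ranged from 7.84 to 15.5 CPM in air and 6.22 to 10.5 in silica at 1 day, and from 10.3 to 17.4 and 1.62 to 3.81 at 3 months (difference 1.70, SE 0.30, edgeR adjusted p = 0.0434). That call was lost in 18 of the 24 fits that each left out 1 library. Ctsk gave 1.37 at 1 day and 2.66 at 3 months (difference -1.29, SE 0.26, adjusted p = 0.149).

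List counts at the 2 times are given side by side, without a test of a list. Those of 3 months are over the members tested in the fit of 1 day and 3 months. These can differ from the members tested in the 1 day fit. Mitosis genes were called 16 times of 22 at 1 day (median 1.55) and 2 times at 3 months (median 0.63), and replication genes 8 and 1 times. Among MHC class II and dendritic cell genes, 2 of 16 tested were called at 1 day (median 0.23), and 13 were called at 3 months (median 0.68). Prc1 gave 1.56 and -0.11, Mmp12 2.12 and 4.42, Cxcl1 4.82 and 2.61, and Scd1 -0.63 and -0.08. At 9 months 23 genes were called (0.179%), and 9 of them were among the 1 day calls. They included Vnn1 and Vnn3 (1.76 and 1.35 at 9 months), Ly6i (3.31), Noxa1 (1.06), Scd1 (-0.80) and Cpne5 (-1.41). The knockout response in Slc26a4 itself was 2.88 at 1 day, 2.69 at 3 months and -0.12 at 9 months, where the air mice ranged from 1.32 to 51.5 CPM (median 3.32) and the silica mice from 10.3 to 13.8 (median 12.5). Air replicate 4 was the highest of the 6 air mice of 9 months for Slc26a4, Cxcl1, Cxcl3, Cxcl5, Saa3, Lcn2, Marco, Ctsk and Mmp12. Mmp12 ranged from 2.22 to 199.6 CPM in those air mice (median 20.9) and from 37.0 to 51.6 in silica (median 45.5), and Saa3 from 1.33 to 240.3 (median 3.62) and from 11.9 to 22.5 (median 15.4). Without air replicate 4 the log2 fold changes at 9 months went from -0.12 to 1.14 for Slc26a4, from -0.06 to 1.22 for Cxcl1, from -1.67 to 0.30 for Saa3 and from -0.14 to 1.22 for Mmp12, none of them called. Lcn2 went from 1.41 (edgeR adjusted p = 0.24) to 2.18 (edgeR adjusted p = 0.011), and 63 genes were called (0.492%), 17 of them also called at 1 day. Vnn1, Vnn3, Ly6i and Cpne5 were called in every fit that left out 1 knockout library of 9 months, whereas Noxa1 and Scd1 were not. The mice differed between times and were older at the later ones, so time after exposure, age and cohort cannot be told apart.

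**Figure D5:**
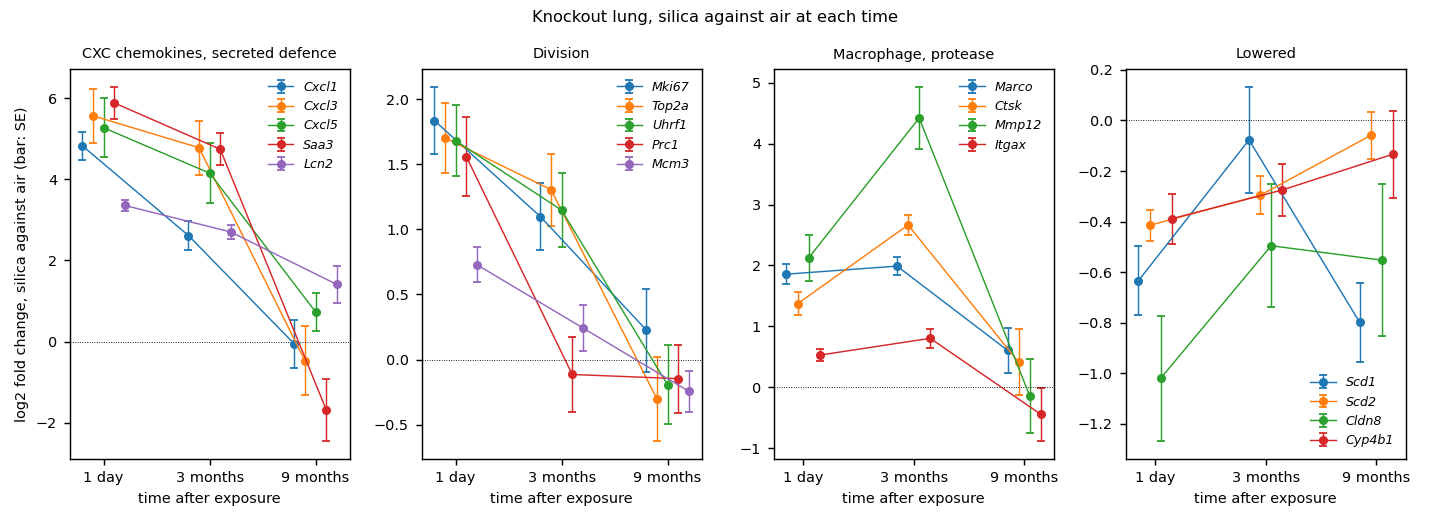
Log2 fold change of silica against air in knockout lung (y axis) by time after exposure (x axis), for 18 genes in 4 panels; bars are SE from each fit, and mice differ between times. Mmp12 is at 2.12, then 4.42 and then -0.14, and at 1.22 at 9 months without air replicate 4; of the 5 chemokine and defence genes shown 0 were called at 9 months with all libraries, and Lcn2 was called without that one.

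Within each side of the split by title number the called genes had median log2 fold changes of 1.00 over 201 raised genes in the lower numbers and 0.64 over 189 in the higher. The 27 lowered genes tested on each side had medians of -0.46 and -0.32. Such values are a description, since the genes were called on the same mice. For Cxcl1 the within-number log2 fold changes were 4.85 and 4.82, for Marco 2.09 and 1.64, for Nfkb2 1.33 and 0.86, for Csf1 1.15 and 0.37, and for Scd1 -0.60 and -0.67. The clock genes Nr1d1 and Per1, looked at after the split was seen, gave -0.94 and -1.22 log2 units for the lower against the higher numbers (edgeR adjusted p = 0.17 and 0.20), and neither was called for silica (-0.21 and 0.13, adjusted p = 0.83 and 0.95).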

How the data were processed

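Lung RNA from 12 knockout mice of the 1 day groups was compared, with 12 wildtype mice of 1 day and 24 knockout mice of 3 and 9 months beside them. Libraries were rRNA-depleted, strand-marking TruSeq libraries amplified over 12 cycles, per the labels' protocols. The authors deposited read counts per gene, not normalised. Per the submitters' processing notes, bcl2fastq 2.19, Trimmomatic 0.35, HISAT2 2.1.0, Cufflinks, SAMtools 1.8, HTSeq 0.11.2 and mm10 were used. The annotation and the strand setting are not given in the sources used here. PCR duplicates were not marked by molecular identifiers, so counting intervals cover counting error only.

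Of 24439 entries, 19 repeated a gene with the same counts and were dropped. edgeR 4.0.16 (R 4.3.3; quasi-likelihood test, filterByExpr, TMM scaling, Benjamini-Hochberg adjustment over all genes tested, threshold 0.05) was fitted to the 24 libraries of 1 day with 1 mean per group, and separately to the 24 knockout libraries of 1 day and 3 months and to the 9 month libraries. Standard errors were approximated as the log2 fold change divided by the square root of F. CPM used TMM factors over 70 libraries. Tests of single library measures were exact permutation tests, two-sided. Scripts were tested on simulated data. Alternatives used limma 3.58.1, DESeq2 1.42.0 and sva 3.50.0. Tables and figures used Python 3.11.15. Promoter windows are RefSeq's, and gene positions are those of mm10.

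The comparison and the 54 gene lists were chosen with earlier results of these data known. Genes were taken from a rule that allowed Slc26a4, the 20 largest increases and 10 largest decreases with a mean of at least 1 CPM, up to 8 called and 3 abundant uncalled members of each list, and the smallest p-values of each difference test. Not every gene allowed is named, and some items are not reported here. F7, F10, Proz, Vnn1, Vnn3, Nr1d1, Per1 and Clec4e fall outside the rule and were chosen after their values were seen. Only the lists that bear on a described comparison are given.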

Additional observations from a re-analysis of the deposited data

Results flagged for a closer look

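In 256 groups of 6 knockout libraries (128 genes, air and silica at 1 day), 18 had 1 library far from the rest by Dixon's test, which chance alone does in about 5% of groups. Silica replicate 3 was the library in 5 of them, and air replicate 3, the shallowest library, in 5.

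Silica replicate 3 was highest for Pcna (67.9 CPM, next 48.4) and Lamp3 (1236, next 796). It was lowest for Sftpb (909 CPM, next 1592), Acly (247, next 277) and Lars2 (17277, next 66228). Silica replicate 1 was highest for Cxcl3 (20.4 CPM, next 9.31) and Iqgap3 (15.2, next 7.26), and silica replicate 4 for Ctsk (43.3, next 32.7).

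Among air libraries, replicate 3 was lowest for Ccl5 (0 CPM, next 5.07) and Vnn3 (2.47, next 5.01), and highest for Nox4 (185, next 140), Aox3 (315, next 245) and Atp6v1c2 (63.0, next 49.0). Air replicate 4 was highest for Hp (490 CPM, next 421) and Marco (29.7, next 17.6) and lowest for Lig1 (6.46, next 9.66). Air replicate 1 was highest for Mcm6 (12.1 CPM, next 7.87) and Mmp12 (7.78, next 2.94).

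Bcan differed between times: the silica effect at 1 day minus that at 3 months was 1.70 log2 units (edgeR adjusted p = 0.0434), from -0.37 at 1 day and -2.08 at 3 months.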

How the results depend on the processing

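The count of 242 genes called in the knockout at 1 day became 122 when only the 12 libraries compared were fitted. It became 142 with a term for the title numbers in that fit, an alternative chosen after seeing the data, as were that term without silica replicate 3 and the time comparison without replicate 3 of both silica groups. Leaving out each library in turn gave 176 to 283. With 1 surrogate variable the count was 363. DESeq2 size factors, DESeq2's own test, other low-count filters, voom quality weights on 24 or 12 libraries and all 70 libraries gave 180 to 268. Without silica replicate 3, the fit of only the libraries compared gave 169, and 198 with the term for the title numbers. The causes were not tested. Of the 97 named genes that were called, 27 lost the call with all 70 libraries and 15 with voom quality weights. Fitting only the 12 libraries compared lost 22 of the 83 tested there. Leaving out single libraries lost 2 to 17, the most without silica replicate 1 (17) and air replicate 2 (16), and 10 without silica replicate 3. Of these genes, 0 changed direction under any setting run.

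For the knockout minus wildtype difference, 0 genes became 1 with voom quality weights, and leaving out each library gave 0 to 1, the 1 being Tcf7l1 without silica replicate 3. For 1 day minus 3 months, 1 gene became 3 with DESeq2's own test, 0 with no low-count filter and 0 with all 70 libraries, and leaving out each library gave 0 to 3. The 23 genes called in the knockout at 9 months became 7 to 63 when each knockout library of that time was left out, an alternative chosen after seeing the data: 17 and 16 without air or silica replicate 1, 37, 63 and 52 without air replicate 3, air replicate 4 or silica replicate 2, and 7 to 11 without any other. No paired analysis was possible because the labels give the groups no shared replicate numbers. Low-count genes, such as Cxcl3 with 2 counts over the air libraries, have wide intervals at this depth.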
